A study of Homo sapiens with 6 samples.

Results

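The proteins of the endoplasmic reticulum (ER) that fold secreted and membrane proteins were measured here at the level of their mRNAs in HOS, an established human osteosarcoma cell line. The 44 genes were taken by symbol from a list of ER chaperones, co-chaperones, disulfide isomerases, glycoprotein folding factors, prolyl isomerases and the MANF family. The rule used no measured value, but the list was drawn up with earlier results of these data known; all 44 were among the 16376 genes of the deposited table. RNA sequencing had been done on 3 libraries of HOS cells given Agrimol B, a plant polyphenol from Agrimonia, for 24 h and on 3 libraries of control HOS cells. All 6 libraries were of the same line, labelled wild type. The control cells are labelled as untreated, with nothing said of a solvent, and no dose of Agrimol B is stated in the sources used here. The study asked which transcripts differ after Agrimol B, in cells of 1 tumour line, and nothing in the labels says that the replicates were separate cultures. The p-values therefore measure only a spread between libraries, which may be technical.

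Proteins enter the ER unfolded and are held there by BiP, the product of HSPA5, an HSP70-type ATPase whose cycle is driven by J-domain co-chaperones and by exchange factors. Disulfide isomerases make and reshuffle the cysteine bonds of the new protein, and glycoproteins pass through a cycle in which glucosidases trim the sugar tree, the lectins calnexin and calreticulin hold the trimmed form, and UDP-glucose glucosyltransferases send unfolded molecules back. When unfolded protein accumulates, the sensors ATF6, IRE1 and PERK start the unfolded protein response (UPR), which raises transcription of many of these genes through promoter elements called ERSE, ERSE-II and UPRE. Osteosarcoma cells secrete collagen matrix, which draws on the same folding machinery.

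Promoter sequences were examined first, because the members differ in whether these elements lie close to the start of transcription. RefSeq promoters (GRCh38.p14, 250 bases before to 50 bases after the start site) were matched by symbol for 39 of the 44 genes. Of these, 6 held the ERSE motif, CCAAT followed after 9 bases by CCACG, on either strand (15.4%), against 27 of 35116 promoters in the RefSeq table (0.0769%) and 16 of 9645 genes tested here that had a promoter entry (0.166%). A gene can have several promoter entries, so the share of tested genes is the like measure to the share of members. The UPR elements are known from ER folding genes like these, so a higher share among members could be foreseen. It is not a result of these data. The ERSE-II motif, ATTGG followed after 1 base by CCACG, was found in 2 of the 39 (5.13%), against 0.0541% of all promoters and 0.145% of the tested genes. The sites are shown because they are matches to the best known UPR elements and their genes include both called and uncalled members; each is written 5′ to 3′ on the strand of its gene with 15 flanking bases on each side in lower case, and the capitals mark the motif, which reads CGTGG first where it lies on the opposite strand.
HSPA5 ERSE, 66 bases before the start site, chr9:125241376-125241424, minus strand: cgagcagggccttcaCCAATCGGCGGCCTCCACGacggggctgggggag
HSP90B1 ERSE, 194 bases before the start site, chr12:103930201-103930249, plus strand: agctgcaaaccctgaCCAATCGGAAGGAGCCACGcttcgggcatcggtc
HSP90B1 ERSE, 89 bases before the start site, chr12:103930306-103930354, plus strand: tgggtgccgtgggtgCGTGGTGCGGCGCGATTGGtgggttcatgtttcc
CALR ERSE, 225 bases before the start site, chr19:12938369-12938417, plus strand: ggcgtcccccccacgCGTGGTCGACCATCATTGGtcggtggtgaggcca
CANX ERSE, 151 bases before the start site, chr5:179698763-179698811, plus strand: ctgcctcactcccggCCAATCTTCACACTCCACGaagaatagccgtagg
PDIA6 ERSE, 86 bases before the start site, chr2:10812838-10812886, minus strand: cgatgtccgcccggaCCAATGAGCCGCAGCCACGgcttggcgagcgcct
CRELD2 ERSE, 80 bases before the start site, chr22:49918539-49918587, plus strand: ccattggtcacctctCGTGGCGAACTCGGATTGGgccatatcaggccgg
HYOU1 ERSE-II, 185 bases before the start site, chr11:119057365-119057405, minus strand: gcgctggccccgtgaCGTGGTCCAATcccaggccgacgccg
HYOU1 ERSE-II, 79 bases before the start site, chr11:119057259-119057299, minus strand: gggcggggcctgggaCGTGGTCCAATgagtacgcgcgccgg
SDF2L1 ERSE-II, 188 bases before the start site, chr22:21642099-21642139, plus strand: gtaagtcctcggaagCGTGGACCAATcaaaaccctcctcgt
The table holds 3 promoter entries of CANX with different start sites, and the same CANX site lies 151, 9 and 189 bases before them. The HYOU1 site at 185 bases before the start overlaps a match to the UPRE core TGACGTGG, which begins 188 bases before the start. The same UPRE core was found in 4 of the 39 genes, namely HYOU1, DNAJC10, TXNDC5 and TXNDC11 (10.3%), against 0.729% of all promoters and 1.3% of the tested genes. In TXNDC11 it lay after the start site. The core TGATGNAA of the element bound by ATF4 and CHOP was found in 0 of the 39 genes, against 3.62% of all promoters and 2.7% of the tested genes, which says only that these letters are not in this window. The 4 motifs were searched on both strands, and a match is a description of the sequence, not of binding.

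Values are FPKM (fragments scaled to transcript length and library depth) as deposited. Differences were tested by limma on log2(FPKM + 1) over 12143 genes whose mean reached 1 FPKM, with Benjamini-Hochberg adjustment over all of them and a threshold of 0.05, and a fold is the mean FPKM with Agrimol B over that in control. A gene is said to have risen or fallen with Agrimol B only where it passed this test. Total FPKM per library lay between 352990 and 359537, and 11993 to 12134 genes reached 1 FPKM in a library. The read totals are unknown, but the most common ratios among genes under 0.05 FPKM gave depths, relative to control replicate 1, of 1.00, 1.19 and 1.16 for the Agrimol B libraries and 0.99 and 1.04 for the other control libraries. These depths are rough, since only 4.98% to 10.8% of the 266 to 405 genes of a pair of libraries lay at that ratio. FPKM are shares of a library, so a rise or fall is relative to the other genes. They give neither cell number nor RNA per cell, so fewer cells and less RNA per cell cannot be told apart. Of the listed markers of mesenchymal cells, all 6 were detected, 4 fell and 2 did not pass the test, with summed levels of 1033 to 1097 FPKM in Agrimol B and 1481 to 1576 FPKM in control libraries. Of 9 markers of other cell types 8 were analysed, and their sum was 132 to 187 FPKM in Agrimol B and 325 to 385 FPKM in control libraries, most of it the keratin KRT8. Of these 8, 4 were tested: KRT8 fell, the macrophage marker CD68 rose and EPCAM and KRT19 did not pass the test. CD68 was at 9.0 ± 1.41 FPKM with Agrimol B and 4.22 ± 0.325 FPKM in control (SD, n = 3 each), a 2.13-fold rise (adjusted p = 0.00109). KRT19 had 0, 3.17 and 2.68 FPKM in Agrimol B libraries, against 0, 0.0357 and 0.209 FPKM in control libraries, and without Agrimol B replicate 1 it was called higher (adjusted p = 0.000622). EPCAM lay between 12.8 and 14.7 FPKM in Agrimol B libraries and between 13.0 and 14.3 FPKM in control libraries. The leukocyte marker PTPRC was at 0 in 2 of 3 Agrimol B libraries and in 3 of 3 control libraries, and CDH1, PECAM1 and CDH5 were under 1 FPKM in every library. The part of these markers in the results was not tested.

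Most of the ER folding genes stood higher after Agrimol B, but the change was uneven. Of the 44 genes, 43 passed the filter on low values; 26 of these rose, 1 fell and 16 did not pass the test. Among all tested genes 52.0% were called, 30.6% as rises and 21.4% as falls. That excess of rises depended on the scaling: the values as deposited gave 3713 rises and 2598 falls, median-ratio scaling gave 3067 rises and 3164 falls, and quantile normalization gave 3101 rises and 3083 falls. The median log2 difference was 0.34 over the tested members and 0.07 over all tested genes. In 29 of the 43 every Agrimol B library lay above every control library, which was so for 36.2% of all tested genes. Of the 26 rises, 5 were 2-fold or more, 9 were between 1.5-fold and 2-fold, and 12 were smaller than 1.5-fold. The members together made up 0.946 ± 0.0186% of total FPKM in Agrimol B and 0.761 ± 0.0160% in control libraries (SD, n = 3 each). Of the called members HSP90B1, DNAJB9, DNAJB11, SIL1, TXNDC11, TMX3, PRKCSH and PPIB each overlap another gene of the table on the opposite strand, and reads of such pairs cannot be told apart if strand was not used in counting, which is not stated.

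**Figure D1:**
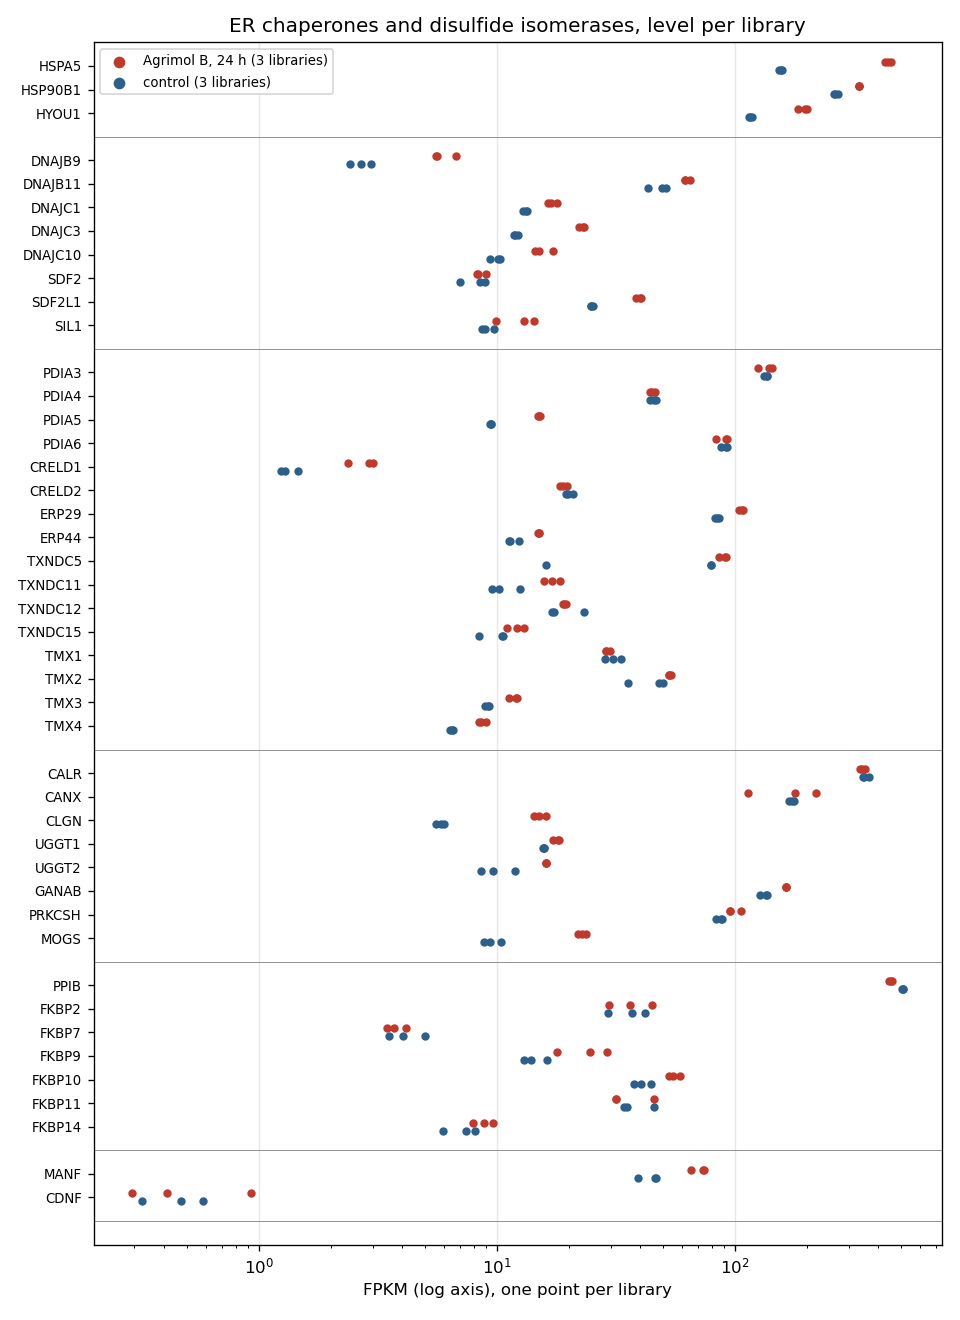
Level of each of the 44 genes in FPKM (log axis), with 1 point per library, Agrimol B in red above control in blue, and genes in blocks by role. HSPA5, CLGN, MOGS and DNAJB9 show wide gaps between the groups, while PDIA3, PDIA4, PDIA6 and CALR overlap, and 1 control library of TXNDC5 and 1 Agrimol B library of CANX lie apart.

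The central ATPase chaperones of the ER lumen rose, HSPA5 most. HSPA5 (chromosome 9, 125234853 to 125241330, minus strand, GENCODE 29 on GRCh38) stood at 426, 439 and 453 FPKM in Agrimol B libraries, against 155, 158 and 153 FPKM in control libraries. The groups were far apart, with the lowest Agrimol B library well above the highest control library. HSPA5 rose 2.83-fold (log2 difference 1.49, 95% interval 1.41 to 1.58, adjusted p = 8.04e-06) and ranked 73 of 12143 tested genes by the size of its rise. HYOU1 (chromosome 11, 119044189 to 119057202, minus strand), a large HSP70 relative also called GRP170 that exchanges the nucleotide of BiP, was at 200.3, 184 and 197 FPKM in Agrimol B libraries, against 115, 114 and 118 FPKM in control libraries. All of its Agrimol B libraries were above all control libraries, a 1.68-fold rise (log2 difference 0.74, 95% interval 0.64 to 0.84, adjusted p = 7.26e-05). HSP90B1 (chromosome 12, 103930107 to 103953645, plus strand), the ER form of HSP90 also called GRP94, was at 331, 330.3 and 331 FPKM in Agrimol B libraries, against 271, 264 and 261 FPKM in control libraries. The replicates lay close together in both groups without overlap, and the rise was 1.25-fold (log2 difference 0.32, 95% interval 0.25 to 0.39, adjusted p = 0.000362). The ratio of HSPA5 to HSP90B1 was 1.29 to 1.37 in Agrimol B and 0.574 to 0.60 in control libraries.

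The order of the abundant folding genes was different in the 2 groups. In the Agrimol B libraries HSPA5 was the most or second most abundant of the 44 genes, with 13.1% of their summed FPKM; in each control library it ranked 5, with 5.7%. PPIB, the ER cyclophilin, CALR and HSP90B1 ranked 1, 2 and 3 in the control libraries. CALR, the soluble lectin chaperone calreticulin, did not pass the test and stood at 334, 342 and 350.4 FPKM in Agrimol B libraries, against 345, 365 and 347 FPKM in control libraries. Its groups overlapped, and the interval of its log2 difference ran from -0.13 to 0.05; CALR was called lower with median-ratio scaling (-0.11, adjusted p = 0.0478) and higher with quantile normalization (0.14, adjusted p = 0.0134). PPIB (chromosome 15, 64155812 to 64163205, minus strand) was the 1 member that fell, at 451, 454 and 444 FPKM in Agrimol B libraries, against 507, 502 and 509.9 FPKM in control libraries. The groups did not overlap, and the mean with Agrimol B was 0.888 times that of control (log2 difference -0.17, 95% interval -0.24 to -0.11, adjusted p = 0.00291), a fall that turned to a log2 difference of 0.03 (adjusted p = 0.40) with quantile normalization. Without HSPA5, the members summed to 2838 to 2966 FPKM in Agrimol B and 2518 to 2621 FPKM in control libraries.

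**Figure D2:**
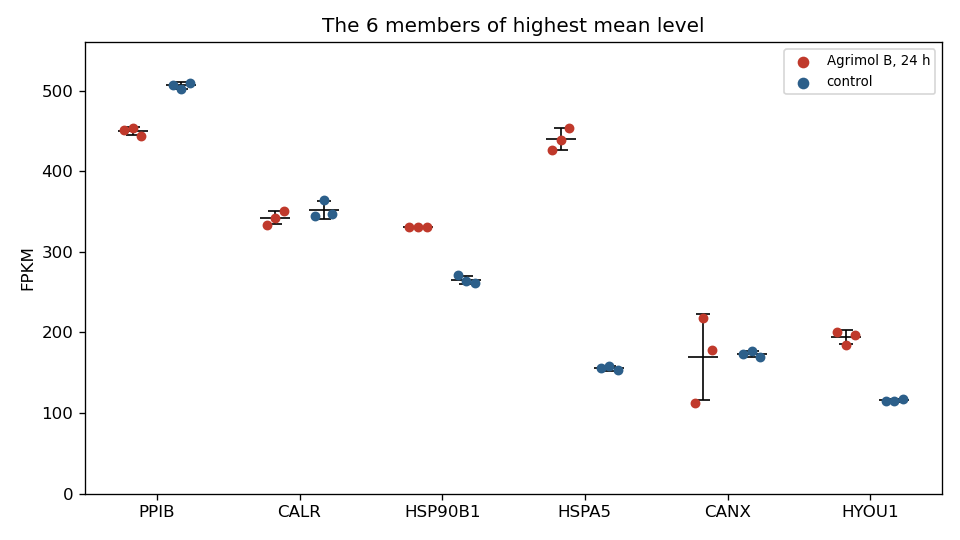
FPKM of the 6 members of highest mean level, with 1 point per library, Agrimol B left of control, and bars for the mean and SD (n = 3). HSPA5 lies at 426 to 453 FPKM with Agrimol B against 153 to 158 FPKM in control, whereas CALR overlaps and PPIB is lower with Agrimol B in the values as deposited, though not with quantile normalization.

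Of the 8 genes that assist BiP (J-domain proteins, the SDF2 pair and the exchange factor SIL1), 7 rose and 1 did not pass the test, with a median log2 difference of 0.50. The share that rose was 87.5%, against 30.6% of all tested genes. DNAJB9, also called ERdj4, which helps BiP to hold the sensor IRE1 inactive, was at 5.62, 5.54 and 6.7 FPKM in Agrimol B libraries, against 2.41, 2.68 and 2.95 FPKM in control libraries. It was a low gene in both groups, did not overlap between them and rose 2.22-fold (log2 difference 0.92, 95% interval 0.69 to 1.14, adjusted p = 0.000489). DNAJC3, also called p58IPK, a luminal co-chaperone of BiP, was at 23.3, 22 and 22.9 FPKM in Agrimol B libraries, against 11.8, 11.9 and 12.2 FPKM in control libraries. Its replicates were tight and separate, a 1.9-fold rise (log2 difference 0.87, 95% interval 0.76 to 0.98, adjusted p = 5.04e-05). SDF2L1, which binds the co-chaperone DNAJB11, was at 38.5, 40.4 and 39.9 FPKM in Agrimol B libraries, against 24.9, 25.4 and 24.8 FPKM in control libraries. That was 1.58-fold higher with no overlap (log2 difference 0.64, 95% interval 0.55 to 0.74, adjusted p = 8.94e-05). SDF2, its paralog, overlapped between groups, with 9.01, 8.23 and 8.3 FPKM in Agrimol B libraries, against 8.95, 8.49 and 6.97 FPKM in control libraries. SDF2 did not pass the test, and the interval of its log2 difference, -0.17 to 0.30, ended below that of SDF2L1, 0.55 to 0.74.

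DNAJC10 (ERdj5), a reductase that opens disulfide bonds of proteins bound for degradation, had 14.5, 15 and 17.1 FPKM in Agrimol B libraries, against 10.1, 10.3 and 9.32 FPKM in control libraries. This was a 1.57-fold rise with separate groups (log2 difference 0.60, 95% interval 0.42 to 0.79, adjusted p = 0.00119). DNAJB11 (ERdj3), which delivers unfolded clients to BiP, had 61.5, 64.8 and 61.5 FPKM in Agrimol B libraries, against 43.1, 49.5 and 51.1 FPKM in control libraries. The rise was 1.31-fold, and control replicate 1 was the lowest library (log2 difference 0.38, 95% interval 0.21 to 0.56, adjusted p = 0.00548). AC068631.2, which overlaps DNAJB11 on the same strand, was at 1.93 FPKM in control replicate 1 and at 0 in control replicates 2 and 3. In Agrimol B libraries it was at 0.576 to 1.13 FPKM, and its part in the DNAJB11 values was not tested. The membrane J-protein DNAJC1 had 16.4, 16.8 and 17.8 FPKM in Agrimol B libraries, against 13.2, 13.3 and 12.9 FPKM in control libraries. It rose 1.29-fold (log2 difference 0.35, 95% interval 0.23 to 0.47, adjusted p = 0.00178). SIL1, a nucleotide exchange factor of BiP, had 14.3, 9.87 and 13 FPKM in Agrimol B libraries, against 8.89, 9.72 and 8.67 FPKM in control libraries. Its groups were separated by a narrow gap, since Agrimol B replicate 2 lay just above control replicate 2, and its 1.36-fold rise (log2 difference 0.39, 95% interval 0.074 to 0.71, adjusted p = 0.0459) was lost under 9 of 13 alternatives (adjusted p 0.00478 to 0.123 over all of them).

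Of the 16 disulfide isomerases and related thioredoxin-fold or CRELD proteins, 7 rose, 0 fell and 9 did not pass the test, with a median log2 difference of 0.31. Rises made up 43.8% of this group, against 30.6% of all tested genes. The isomerases PDIA3, PDIA4 and PDIA6 were among those without a call. PDIA3 (ERp57), which works on glycoproteins held by the lectins, was at 125, 138 and 143 FPKM in Agrimol B libraries, against 136, 132 and 136 FPKM in control libraries. PDIA6 (P5), a partner of BiP, was at 91.5, 83.3 and 92.5 FPKM in Agrimol B libraries, against 92.3, 91.3 and 87.1 FPKM in control libraries. PDIA4 (ERp72) was at 44.9, 44 and 45.9 FPKM in Agrimol B libraries, against 46.5, 45.9 and 44 FPKM in control libraries. The groups overlapped in each of these genes, and the intervals of their log2 differences, -0.12 to 0.14 for PDIA3, -0.15 to 0.11 for PDIA6 and -0.12 to 0.083 for PDIA4, lay below that of PDIA5. PDIA5 (chromosome 3, 123067062 to 123225227, plus strand), a less abundant isomerase, was at 15, 14.8 and 15.1 FPKM in Agrimol B libraries, against 9.41, 9.42 and 9.35 FPKM in control libraries. Its replicates hardly differed within a group, and it rose 1.59-fold (log2 difference 0.62, 95% interval 0.52 to 0.72, adjusted p = 0.000114). PDIA5 overlaps SEC22A on its strand, and SEC22A also rose (log2 difference 0.51, adjusted p = 0.0357), a call lost under 5 of 13 alternatives. The summed FPKM of PDIA3, PDIA4, PDIA5 and PDIA6 was 277 to 296 in Agrimol B and 276 to 284 in control libraries.

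The other rises in this group were those of CRELD1, TXNDC11, ERP29, ERP44, TMX3 and TMX4. CRELD1, an EGF-domain membrane protein, was at 2.36, 3.0 and 2.91 FPKM in Agrimol B libraries, against 1.45, 1.24 and 1.28 FPKM in control libraries. It was the lowest of the tested members and rose 2.08-fold without overlap (log2 difference 0.69, 95% interval 0.47 to 0.90, adjusted p = 0.00128). CRELD2, its paralog and a known target of the UPR, was at 19, 19.6 and 18.5 FPKM in Agrimol B libraries, against 19.8, 20.8 and 19.5 FPKM in control libraries. Its groups overlapped, it did not pass the test, and its interval ran from -0.19 to 0.044. TXNDC11, a membrane protein that acts with EDEM proteins in ER-associated degradation, was at 17.1, 15.8 and 18.5 FPKM in Agrimol B libraries, against 12.5, 10.2 and 9.54 FPKM in control libraries. It rose 1.59-fold with no overlap (log2 difference 0.63, 95% interval 0.37 to 0.89, adjusted p = 0.00384).

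ERP29, a redox-inactive member of the isomerase family, was at 108, 107 and 104 FPKM in Agrimol B libraries, against 85.3, 82 and 83.8 FPKM in control libraries. This 1.27-fold rise was small but exceeded the spread of the replicates (log2 difference 0.34, 95% interval 0.25 to 0.43, adjusted p = 0.000608). ERP44, which retains the oxidases of the ERO1 family and unassembled secretory proteins in the early secretory pathway, was at 14.9, 15 and 15 FPKM in Agrimol B libraries, against 11.2, 11.3 and 12.4 FPKM in control libraries. It rose 1.29-fold (log2 difference 0.34, 95% interval 0.21 to 0.47, adjusted p = 0.00276). Of the transmembrane thioredoxins, TMX4 rose 1.34-fold, with 9.04, 8.41 and 8.53 FPKM in Agrimol B libraries, against 6.56, 6.35 and 6.44 FPKM in control libraries (adjusted p = 0.00149). TMX3 rose 1.3-fold, with 12.1, 12 and 11.3 FPKM in Agrimol B libraries, against 8.9, 9.14 and 9.24 FPKM in control libraries (adjusted p = 0.00205). TMX1 and TMX2 did not pass the test. TMX1 overlapped between groups, with a log2 difference -0.077, 95% interval -0.23 to 0.075. TMX2 had 53.7, 52.8 and 52.6 FPKM in Agrimol B libraries, against 35.5, 47.7 and 50.0 FPKM in control libraries, with no overlap but a wide control group (log2 difference 0.27, 95% interval -0.043 to 0.58, adjusted p = 0.125). TXNDC15 also had no overlap and missed the threshold (log2 difference 0.27, 95% interval 0.021 to 0.53, adjusted p = 0.068), and TXNDC12, also called ERp18, overlapped (log2 difference 0.011, 95% interval -0.28 to 0.30).

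TXNDC5 (ERp46; chromosome 6, 7881517 to 7910814, minus strand), an isomerase with several thioredoxin domains, had 91.6, 90.4 and 86 FPKM in Agrimol B libraries, against 79.3, 79.2 and 16.1 FPKM in control libraries. Control replicate 3 was far below every other library. In that library the read-through gene BLOC1S5-TXNDC5, which overlaps TXNDC5 on the same strand and was looked up after the values were seen, was listed at 57.5 FPKM, and in the 5 other libraries it was listed at 0. As deposited, the TXNDC5 difference did not pass the test (log2 difference 0.91, 95% interval -0.56 to 2.38, adjusted p = 0.248). With both genes summed, the values were 91.6, 90.4 and 86.0 FPKM in Agrimol B libraries, against 79.3, 79.2 and 73.6 FPKM in control libraries. The sum was 1.15-fold higher with Agrimol B (log2 difference 0.21, adjusted p = 0.0124), an alternative chosen after seeing the data. FPKM are scaled to the transcript length of each gene, so the sum need not equal the TXNDC5 level if those lengths differ. Without control replicate 3, TXNDC5 alone had a log2 difference of 0.17 (adjusted p = 0.0338).

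**Figure D3:**
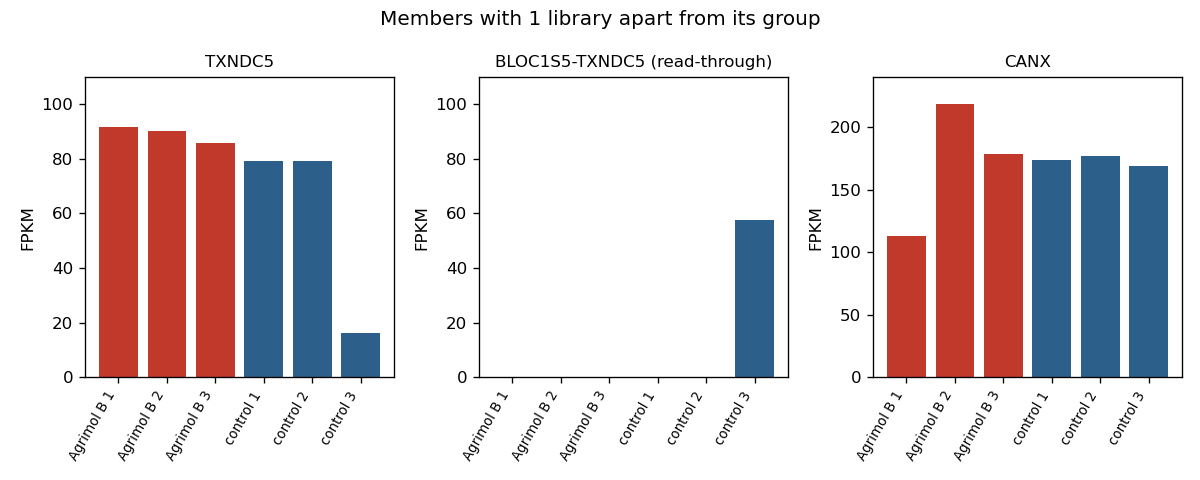
FPKM per library of TXNDC5, of the read-through gene BLOC1S5-TXNDC5 and of CANX, with Agrimol B in red and control in blue. The low TXNDC5 value of control replicate 3 (16.1 FPKM) coincides with the 1 library in which the read-through gene is not listed at 0, and CANX ranges from 113 to 218 FPKM within the Agrimol B group.

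In the glycoprotein cycle, 6 of 8 genes rose (75%, against 30.6% of all tested genes), 0 fell and the 2 main lectins did not pass the test. The outer glucoses are trimmed by glucosidases: MOGS is glucosidase I, and GANAB and PRKCSH are the catalytic and regulatory subunits of glucosidase II. MOGS (chromosome 2, 74461057 to 74465410, minus strand) had 21.8, 23.7 and 22.7 FPKM in Agrimol B libraries, against 8.84, 10.4 and 9.32 FPKM in control libraries. The groups were widely separated, and MOGS rose 2.39-fold (log2 difference 1.18, 95% interval 1.00 to 1.35, adjusted p = 8.21e-05). GANAB had 164, 164 and 163 FPKM in Agrimol B libraries, against 128, 137 and 136 FPKM in control libraries. Its rise of 1.23-fold was smaller and still free of overlap (log2 difference 0.30, 95% interval 0.20 to 0.39, adjusted p = 0.00128). PRKCSH had 95.7, 95.4 and 106 FPKM in Agrimol B libraries, against 83, 87.4 and 87.8 FPKM in control libraries. It rose 1.15-fold (log2 difference 0.20, 95% interval 0.067 to 0.33, adjusted p = 0.0228), a call lost with median-ratio scaling and without control replicate 1 (adjusted p 0.0231 to 0.0919 over 13 alternatives).

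UGGT1 and UGGT2 are the glucosyltransferases that tag unfolded glycoproteins. UGGT2 had 16.1, 16.1 and 16.1 FPKM in Agrimol B libraries, against 9.64, 11.9 and 8.58 FPKM in control libraries. Its Agrimol B libraries were almost equal, its control libraries spread more widely, and it rose 1.61-fold (log2 difference 0.64, 95% interval 0.38 to 0.91, adjusted p = 0.0037). UGGT1 had 18.2, 17.3 and 18.1 FPKM in Agrimol B libraries, against 15.7, 15.7 and 15.8 FPKM in control libraries. It rose 1.14-fold (log2 difference 0.17, 95% interval 0.069 to 0.28, adjusted p = 0.0163), and this call was lost with median-ratio scaling, quantile normalization or the replicate block (adjusted p 0.0136 to 0.115 over 13 alternatives). The ratio of UGGT2 to UGGT1 was 0.885 to 0.934 in Agrimol B and 0.543 to 0.758 in control libraries.

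Among the lectins, CLGN (calmegin; chromosome 4, 140388455 to 140427968, minus strand), a calnexin homolog best known from the testis, had 15, 14.2 and 16 FPKM in Agrimol B libraries, against 5.54, 5.79 and 5.98 FPKM in control libraries. It rose 2.62-fold with no overlap (log2 difference 1.25, 95% interval 1.10 to 1.40, adjusted p = 4.72e-05), the second largest log2 difference of the 43 genes after HSPA5. CANX, calnexin, had 113, 218 and 178 FPKM in Agrimol B libraries, against 173, 177 and 169 FPKM in control libraries. Agrimol B replicate 1 was the lowest of the 6 libraries and Agrimol B replicate 2 the highest, so the interval of its log2 difference was wide (log2 difference -0.079, 95% interval -0.64 to 0.48, adjusted p = 0.794). CLGN amounted to 6.52% to 13.3% of the CANX level in Agrimol B and 3.19% to 3.54% in control libraries.

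Of the 7 prolyl isomerases, 2 rose, PPIB fell and 4 did not pass the test. These shares, 28.6% risen and 14.3% fallen, were no higher than the 30.6% and 21.4% of all tested genes. FKBP10 (FKBP65), which assists collagen folding, had 55.1, 52.6 and 58.6 FPKM in Agrimol B libraries, against 37.7, 44.5 and 40.3 FPKM in control libraries. It rose 1.36-fold without overlap (log2 difference 0.43, 95% interval 0.26 to 0.61, adjusted p = 0.0037). FKBP9 had 18, 28.9 and 24.5 FPKM in Agrimol B libraries, against 13, 16.3 and 13.9 FPKM in control libraries. Its Agrimol B libraries were widely spread though all above control, a 1.65-fold rise (log2 difference 0.67, 95% interval 0.24 to 1.09, adjusted p = 0.0208) lost without Agrimol B replicate 3 or without control replicate 1 or 3 (adjusted p 0.00478 to 0.0647 over 13 alternatives). FKBP2, FKBP7, FKBP11 and FKBP14 overlapped between groups, with log2 differences of 0.03, -0.11, -0.092 and 0.27. FKBP2 and FKBP11 varied within both groups: FKBP2 spanned 29.5 to 44.7 FPKM in Agrimol B and 29.4 to 41.7 FPKM in control libraries, and FKBP11 spanned 31.5 to 45.5 FPKM in Agrimol B and 34.2 to 45.7 FPKM in control libraries.

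MANF (chromosome 3, 51385047 to 51389397, plus strand), a secreted ER stress protein that binds BiP, had 74.3, 73.6 and 65.3 FPKM in Agrimol B libraries, against 46.2, 46.7 and 39 FPKM in control libraries. It rose 1.62-fold without overlap (log2 difference 0.68, 95% interval 0.47 to 0.90, adjusted p = 0.00132). Its paralog CDNF was under the filter and was not tested, with 0.293, 0.411 and 0.929 FPKM in Agrimol B libraries, against 0.58, 0.47 and 0.323 FPKM in control libraries. These CDNF values overlapped and were all below 1 FPKM.

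**Figure D4:**
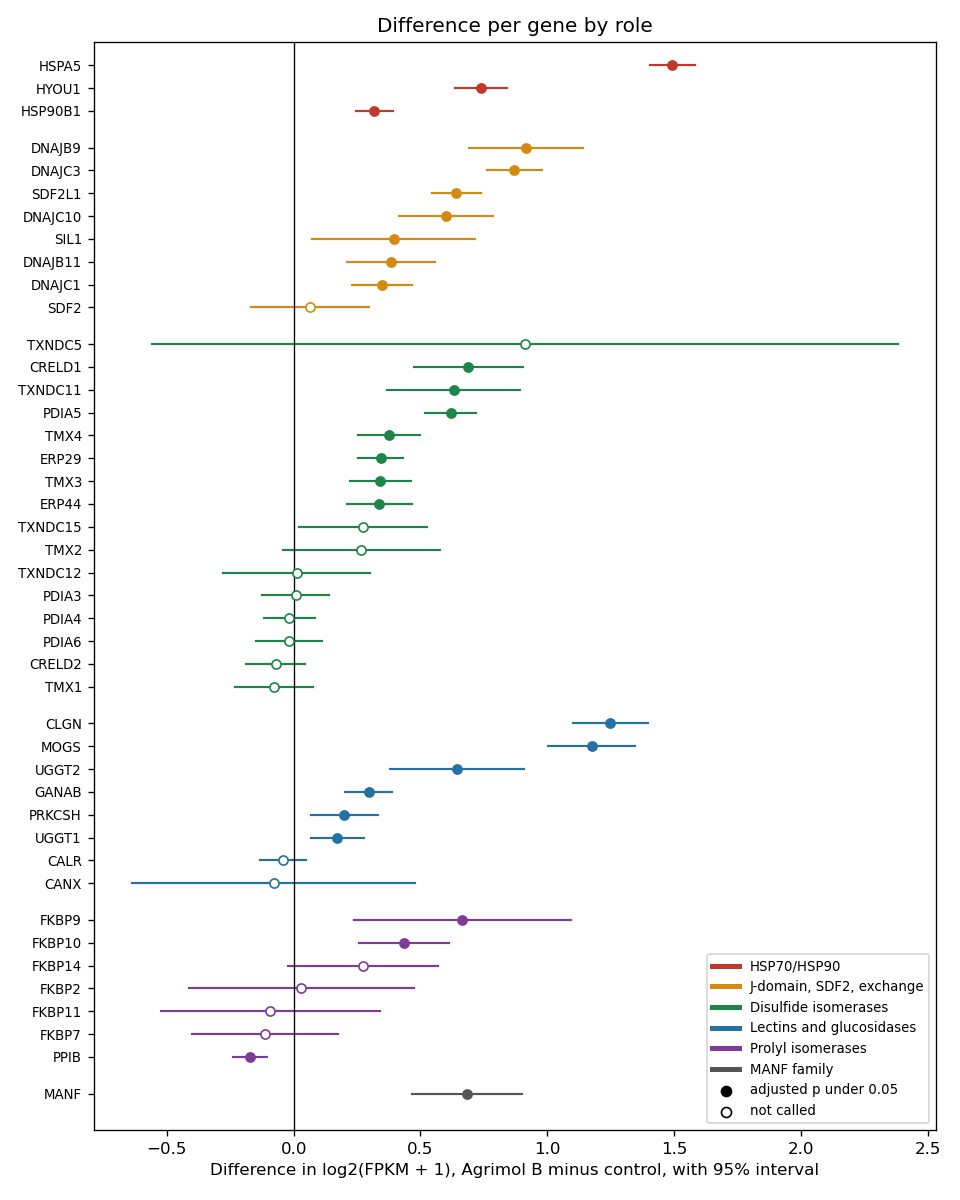
Difference in log2(FPKM + 1), Agrimol B minus control, with its 95% interval for the 43 tested genes, in blocks by role; filled points passed the adjusted threshold. HSPA5, CLGN and MOGS lie furthest to the right, PPIB is the 1 filled point left of 0 (right of 0 and not called with quantile normalization), and TXNDC5 and CANX have the widest intervals.

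Set beside the promoter motifs shown above, the differences split. Of the 8 genes with an ERSE or ERSE-II match, 4 rose: HSPA5, HSP90B1, HYOU1 and SDF2L1. The other 4, CALR, CANX, PDIA6 and CRELD2, did not pass the test, and their log2 differences were -0.041, -0.079, -0.02 and -0.071. The median log2 difference was 0.15 over these 8 genes and 0.34 over the tested ones of the 31 genes with a promoter entry and no such match. Of these 31 genes 19 rose, 1 fell and CDNF was not tested. Over all tested members 60.5% rose, and over all tested genes 30.6%, so 4 of 8 is no higher than the member share. No difference between genes with and without a match was tested. A missing match says only that these exact letters are not in the window searched, not that the gene lacks such an element. Both genes with ERSE-II rose, as did 3 of the 4 with the UPRE core, and HYOU1 is in both sets. These sets are too small to be set against the shares above. The other gene with the UPRE core, TXNDC5, did not pass the test as deposited. Summed with its read-through gene, an alternative chosen after seeing the data, TXNDC5 had a log2 difference of 0.21 (adjusted p = 0.0124). It is not counted as a rise here. CLGN and DNAJB9, which are among the 19 risen genes without an ERSE or ERSE-II match, held none of the 4 motifs. DNAJC1, PDIA3, MOGS, FKBP10 and FKBP14 had no entry in the promoter table.

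The other genes of ER folding were described from lists made by pathway, and earlier results of these data were known when the lists were made. Among all tested genes 30.6% rose and 21.4% fell. Of 12 UPR sensors and transcription factors, 9 rose (75%) and 1 fell (8.33%), with a median log2 difference of 0.57. DDIT3, which encodes CHOP, rose 8.68-fold, XBP1 4.14-fold and ERN1, which encodes IRE1, 3.07-fold, to 5.89 ± 0.496 FPKM with Agrimol B against 1.92 ± 0.191 FPKM in control. ATF6 rose 1.88-fold. CREB3L1, a matrix-gene activator of the same family as ATF6, fell to 17.8 ± 0.401 FPKM with Agrimol B, against 32 ± 1.5 FPKM in control (adjusted p = 8.98e-05). Of 17 genes of ER-associated degradation, 10 rose (58.8%) and 1 fell (5.88%), with a median log2 difference of 0.47. HERPUD1 rose 3.2-fold, SELENOS 2.24-fold and SYVN1, the ubiquitin ligase of this pathway, 1.77-fold. VCP, the ATPase that draws proteins out of the ER, was the 1 that fell, at 81.2 ± 2.77 FPKM with Agrimol B and 111 ± 1.99 FPKM in control (adjusted p = 0.000299).

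Of 12 tested further genes of oxidative folding, 5 rose and 1 fell, with a median log2 difference of 0.18. The shares were 41.7% risen and 8.33% fallen, against 30.6% and 21.4% of all tested genes. PRDX4 and QSOX2 are among the 5, but their calls held under only 8 and 6 of 13 alternatives. QSOX1, a sulfhydryl oxidase, rose 2.0-fold to 50.5 ± 3.46 FPKM with Agrimol B, against 25.2 ± 0.713 FPKM in control (adjusted p = 9.28e-05), and SUMF2 rose 1.43-fold. ERO1B, a low gene and an oxidase that recharges the isomerases, rose 1.7-fold. GPX7, a peroxidase of the ER, was the 1 that fell, at 10.8 ± 0.445 FPKM with Agrimol B and 13.5 ± 0.472 FPKM in control (adjusted p = 0.00419), and with median-ratio scaling 3 genes of this list rose. The isomerase P4HB and the oxidase ERO1A did not pass the test, with log2 differences of 0.17 and -0.029; without control replicate 3 P4HB was called higher (log2 difference 0.30, adjusted p = 0.0194). The 3 KDEL receptors, which return escaped chaperones from the Golgi, rose: KDELR2 1.83-fold, KDELR3 1.85-fold and KDELR1 1.12-fold, the last of these lost with median-ratio scaling (log2 difference 0.094, adjusted p = 0.0875).

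Among the listed chaperones outside the ER the direction was mostly the other way. Of 15 tested chaperones of the cytosol and mitochondria, 13 fell and 1 rose, with a median log2 difference of -0.47. The share that fell was 86.7%, against 21.4% of all tested genes. The call of TRAP1 held under 8 of 13 alternatives, and that of HSP90AA1 was lost with quantile normalization (log2 difference -0.11, adjusted p = 0.113). HSPA8, the cytosolic HSP70 relative of HSPA5, was at 510.0 ± 15.6 FPKM with Agrimol B and 1345 ± 4.8 FPKM in control (log2 difference -1.40, adjusted p = 6.74e-06). HSP90AB1, the cytosolic relative of HSP90B1, was at 587 ± 6.92 FPKM with Agrimol B and 883 ± 3.55 FPKM in control. HSPA9, the mitochondrial HSP70, was the 1 that rose, 1.7-fold. HSPE1 and HSPA1A fell, with log2 differences of -1.02 and -0.87; HSPA1A has a near-identical copy, so its value is uncertain.

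**Figure D5:**
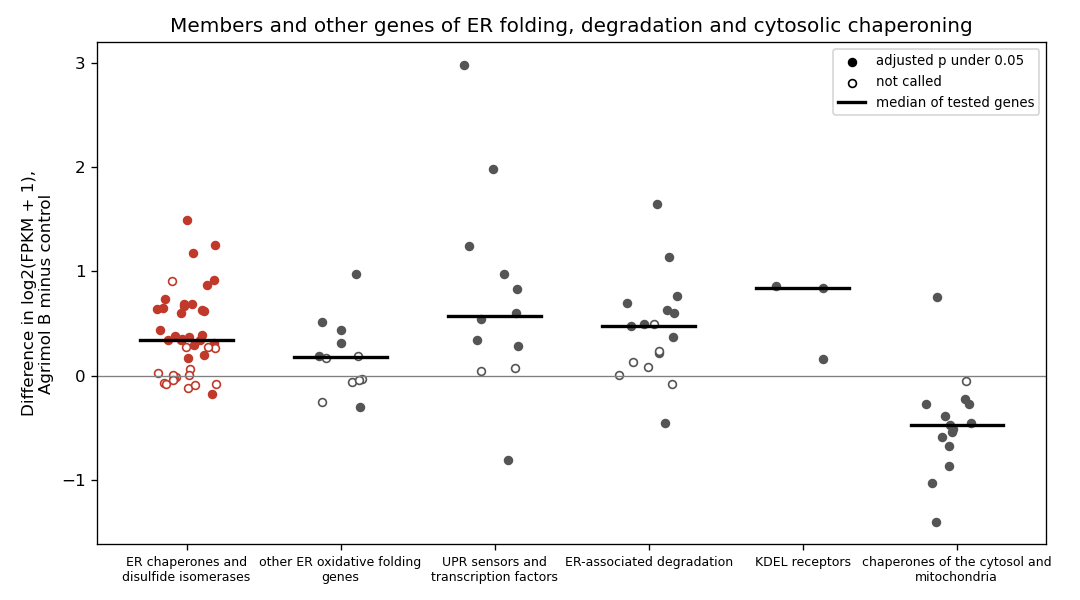
Difference in log2(FPKM + 1), Agrimol B minus control, of each tested gene in 6 lists, with filled points past the adjusted threshold and bars at the medians. The ER lists lie mostly above 0 (medians 0.34, 0.18, 0.57, 0.47 and 0.84), and the chaperones of the cytosol and mitochondria mostly below it (median -0.47).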

How the data were processed

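RNA of 3 Agrimol B and 3 control libraries of HOS cells was sequenced from stranded mRNA libraries, per the labels' protocols. The authors deposited 1 table of FPKM values for the 6 libraries. Per the submitters' processing notes, HISAT, Trimmomatic, cutadapt and FastQC were used with hg38; the program behind FPKM, its gene models and its strand setting are not stated in any label or header. Agrimol B columns carry the names in those samples' descriptions. Control columns carry the letters of those descriptions in another order and the same replicate number, which served to match them. FPKM keep no read totals, so the counting error of a value is unknown, and reads shared by overlapping genes may be split between them.

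Values were analysed as log2(FPKM + 1), which understates changes of low genes. Genes whose mean reached 1 FPKM were fitted with limma 3.58.1 in R 4.3.3 (two-sided test of the group term, moderation with a variance trend), and p-values were adjusted by Benjamini-Hochberg over 12143 genes. The fit was checked on simulated libraries of independent normal noise with the fit's own variances. Such libraries cannot show errors of read assignment or the effect of technical replicates. The members and lists were chosen with earlier results of these data known. Called members and the 6 of highest level were named with values per library, uncalled members where compared within their role, and, of each other list, the 3 called genes with the largest differences. ATF6, CREB3L1, P4HB, ERO1A, PRDX4, QSOX2, HSP90AB1, HSP90AA1, TRAP1, HSPA9, VCP, GPX7, SEC22A, AC068631.2, the cell type markers and the read-through gene were added after their values were seen. Genes were placed with GENCODE release 29. RefSeq promoters were searched with Python 3.11.15. RefSeq proteins were not used here.

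Alternatives were another pseudocount, other filters, median-ratio and quantile scaling, no variance trend with robust moderation, a replicate block, and leaving out each library; running them on the genes of the other lists, and summing TXNDC5 with its read-through gene, were added after seeing the data.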

Additional observations from a re-analysis of the deposited data

How the results depend on the processing

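Of the 26 genes that rose, 22 kept their direction and their call under every alternative run on them; SIL1, UGGT1, PRKCSH and FKBP9 lost theirs under some. The number of members that rose was 25 with quantile normalization, 23 with median-ratio scaling, 24 with a filter of 5 FPKM and 23 to 26 when 1 library was left out. The number that fell was 2 with median-ratio scaling, where CALR joined PPIB (log2 difference of CALR -0.11, adjusted p = 0.0478). With quantile normalization CALR instead stood higher (0.14, adjusted p = 0.0134) and PPIB did not pass the test (log2 difference 0.034, adjusted p = 0.40). CRELD2 was called lower with quantile normalization alone (-0.14, adjusted p = 0.0492). The cause of these shifts was not tested. The median log2 difference of all genes was 0.07 as deposited, 0.003 with median-ratio scaling and 0.007 with quantile normalization. The deviations of same-numbered libraries from their group means were not correlated (r -0.015 to 0.037, 3 pairs), and 2 of 6 libraries correlated best with their own number, so the numbers were not taken as pairs. With the replicate block 5776 genes were called, 25 members rose and 1 fell, 24 of the 25 being among the 26; TXNDC15 was called (log2 difference 0.27, adjusted p = 0.0293). Over all genes 5512 to 5731 were called when 1 library was left out, against 6311. Of 70 tested genes outside the members, namely those of the other lists, marker lists included, and SEC22A, 58 kept their call and its direction, or stayed without a call, under every alternative run on them, and no called gene among the 70 changed sign. Depth in reads is unknown, which limits what can be said of DNAJB9, CRELD1, FKBP7 and CDNF, the members of lowest level.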
